A study of Mus musculus with 4 samples.

Results

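The array carries probes for 4429 intergenic regions that its design names only by position and strand, as candidate long intergenic noncoding RNAs. They were taken as every non-control probe whose gene name is an mm9 position on an autosome followed by F (forward strand) or R (reverse strand). They made up 4429 of the 34821 names on the array and 15604 of its 55681 non-control probes. Their 3387 distinct bounds were probed on 1 strand or, in 1042 cases, on both, and 2231 of the regions lay on the forward strand. The median region was 10745 bp long (quartiles 1791 and 25940 bp) and had 3 probes of 60 bases. Single probes stood for 660 regions, and 143 regions had 10 probes. Overlap was common: 2034 regions overlapped another on the same strand, so that the regions fell into 3226 separate loci.

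Long intergenic noncoding RNAs are transcripts made outside protein-coding genes that are not translated. Many are capped, spliced and polyadenylated by the same machinery as messenger RNA, are present at low levels, and are restricted to particular cell types. Some, such as Neat1 and Malat1, act in nuclear bodies, others carry small RNAs, and for most no function is known. In pancreatic islets, noncoding transcripts lie near genes for islet transcription factors.

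RNA of 2 groups was compared, with 2 single-colour arrays in each. Islet-like clusters were grown from pancreatic cells resembling mesenchymal stromal cells, over 10 days in serum-free medium with insulin, transferrin and selenium on low-adherence dishes; taurine (0.3 mM) was given on day 3, and nicotinamide (100 mM), taurine (3 mM) and the incretin peptide GLP-1 on day 7. The islets of Langerhans came from collagenase digests of the same kind, and their labels name both 48 h of culture and fresh isolation. All donors were male Swiss albino mice aged 10 to 12 weeks, killed in groups of 2 to 4. Whether a group's samples are separate pools is not given in the labels; the p-values therefore rest on array-to-array spread that may be technical in part. No starting cells before induction were among the samples. From each sample 500 ng of RNA was copied with an oligo-dT primer, which primes on poly(A) tails.

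The probes that carry the largest and the most telling differences are shown first, as the deposited files give them, 5′ to 3′ on the strand of the region, each with the position of its 60 bases on mm9. The first pair are single probes of the region farthest above the islets among those with 1 probe on the array (near Fn1) and of the region farthest below them (near Hs6st1), both among regions well above background on all arrays, and the next 6 belong to regions whose 3 probes moved together. Capitals mark the hexamer AATAAA, the most common polyadenylation signal, where a probe holds it.

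Fn1 side, chr1:71738526-71738585, reverse: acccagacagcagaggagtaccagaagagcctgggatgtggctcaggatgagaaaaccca
Hs6st1 side, chr1:36087073-36087132, reverse: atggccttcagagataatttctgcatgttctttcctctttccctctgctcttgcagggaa
Zfp541 side, first probe, chr7:16634139-16634198, forward: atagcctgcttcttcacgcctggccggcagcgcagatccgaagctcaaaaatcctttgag
Zfp541 side, second probe, chr7:16634202-16634261, forward: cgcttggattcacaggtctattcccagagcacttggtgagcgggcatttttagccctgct
Zfp541 side, last probe, chr7:16634351-16634410, forward: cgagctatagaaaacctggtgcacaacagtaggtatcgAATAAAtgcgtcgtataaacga
Ssfa2 side, first probe, chr2:79518124-79518183, forward: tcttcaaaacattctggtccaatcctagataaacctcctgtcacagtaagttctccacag
Ssfa2 side, second probe, chr2:79518191-79518250, forward: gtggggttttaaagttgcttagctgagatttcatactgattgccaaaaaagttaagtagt
Ssfa2 side, last probe, chr2:79518262-79518321, forward: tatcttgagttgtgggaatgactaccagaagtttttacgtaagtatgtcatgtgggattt

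The next 4 probes come from regions where 1 probe was far higher in clusters while a neighbouring probe, its start 219 (Eomes) or 68 (Rnf19b) bases away, was not called, and the last pair are probes of opposite strands. In that pair, capitals mark the 29 bases that both strands' probes cover, which are reverse complements of each other.

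Eomes side, probe with no call, chr9:118313883-118313942, forward: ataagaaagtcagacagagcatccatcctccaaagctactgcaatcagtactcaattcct
Eomes side, higher probe, chr9:118314102-118314161, forward: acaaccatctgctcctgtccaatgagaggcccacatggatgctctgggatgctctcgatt
Rnf19b side, higher probe, chr4:128731800-128731859, forward: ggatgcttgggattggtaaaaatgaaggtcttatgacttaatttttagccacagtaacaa
Rnf19b side, probe with no call, chr4:128731868-128731927, forward: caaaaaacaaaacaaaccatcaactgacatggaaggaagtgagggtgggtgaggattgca
Sash1 side, chr10:8661325-8661384, forward: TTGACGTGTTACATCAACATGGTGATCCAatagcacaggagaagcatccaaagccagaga
Sash1 side, chr10:8661294-8661353, reverse: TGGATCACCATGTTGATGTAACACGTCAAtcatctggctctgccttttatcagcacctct

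The hexamer AATAAA lay in 3.92% of the 15604 region probes, and its reverse complement TTTATT in 3.08%. Among 27985 probes of RefSeq genes the shares were 13.3% and 4.26%. It was present in 3.87% of region probes that all 4 arrays measured well above background and in 4.07% of those well above background on none. Of the 136 probes in the 37 regions named here, 5 shared a run of 16 or more bases in the same orientation with a probe of another name that is no region, and the longest such run was 32 bases.

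Most regions gave signal in both groups. A region counts here as detected on an array when at least 1 of its probes was well above background by the scanner software's flag. By this count 2965 of 4429 regions (66.9%) were detected on all 4 arrays and 711 on none. Detection on both arrays of one group and on neither of the other was found for 94 regions in clusters (2.12%; other names 2.59%) and 104 in islets (2.35%; other names 3.83%). In each group the numbers detected on both arrays were close, 3173 regions in clusters and 3222 in islets. Among the 30392 other names 59.1% were detected on all 4 arrays and 24.6% on none.

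Detection of the single probes was lower. Of the region probes, 45.3% and 48.9% exceeded background by this flag in clusters and 48.4% and 45.5% in islets, against 64.8% to 69.0% of the other spots. Regions with more probes were seen more often: 41.1% of regions with 1 probe and 92.2% of those with 6 or more were detected on all 4 arrays. Of 3769 regions with several probes, 402 had every probe above background on all arrays, 2244 had some and 1123 had none. When every probe had to be well above background, the regions detected on both arrays fell to 885 in clusters and 858 in islets. Regions of 1 kb or more were cut into 5 equal parts, and their probes with an mm9 position were counted. In the part at the 5′ end 804 of 1914 probes (42.0%) were above background on all arrays. In the part at the 3′ end it was 1877 of 5331 (35.2%).

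Between clusters and islets, 1507 of the 3413 regions tested differed (44.2%; limma, Benjamini-Hochberg adjusted over all 24596 names tested, threshold 0.05). Of all names tested 58.0% were called, and of the names other than regions 60.3%, so the regions' share lay below the background; the difference in shares was not tested, and the median SE of a region's log2 fold change was 0.19 against 0.17 over other names. Higher in clusters were 628 regions (18.4%; all names 26.9%, names other than regions 28.2%) and lower were 879 (25.8%; all names 31.2%, names other than regions 32.1%). No call was made for 1906 regions, and 1016 were not tested because neither group had a probe that both of its arrays measured well above background; probes that met this are called kept, and a region's level is their mean. At least 2-fold differences were found in 431 of the higher and 492 of the lower regions, and over 10-fold differences in 57 and 36. Shares of other names at these cut-offs were not counted, but large differences were less common among regions. The 0.05 and 0.95 quantiles of log2 fold change were -1.98 and 1.95 over the tested regions. Over tested names other than regions they were -3.61 and 3.25. In 944 regions both cluster arrays lay above both islet arrays and in 1618 they lay below, shares of 27.7% and 47.4% against 36.8% and 46.3% of all names.

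The split between higher and lower depends on the centre of the scale. Scaling to the array median gave 816 higher and 638 lower regions (56.1% higher, against 41.7% with scaling to the 75th percentile). Normexp background correction, which models local background as added noise, was run with an offset of 50 added to every signal. It gave 356 higher and 936 lower regions (27.6% higher), and the part of the offset in this was not tested. Of all names 56.3% were called with the array median and 57.8% with normexp, against 58.0% with the 75th percentile. The split by direction over all names was not counted for these settings. The median log2 fold change of the regions tested was -0.25, beside -0.16 over all names, and with the array median as the scale the values were -0.04 and 0.06. When dim probes were left in, 841 of 4427 regions were called (19%; all names 33.5%). Of these 421 were higher (9.51%; all names 15.8%) and 420 lower (9.49%; all names 17.7%). Without cluster replicate 1 the number of higher regions was 414. In bulk RNA, fewer cells of a type and less RNA per cell cannot be told apart.

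**Figure D1:**
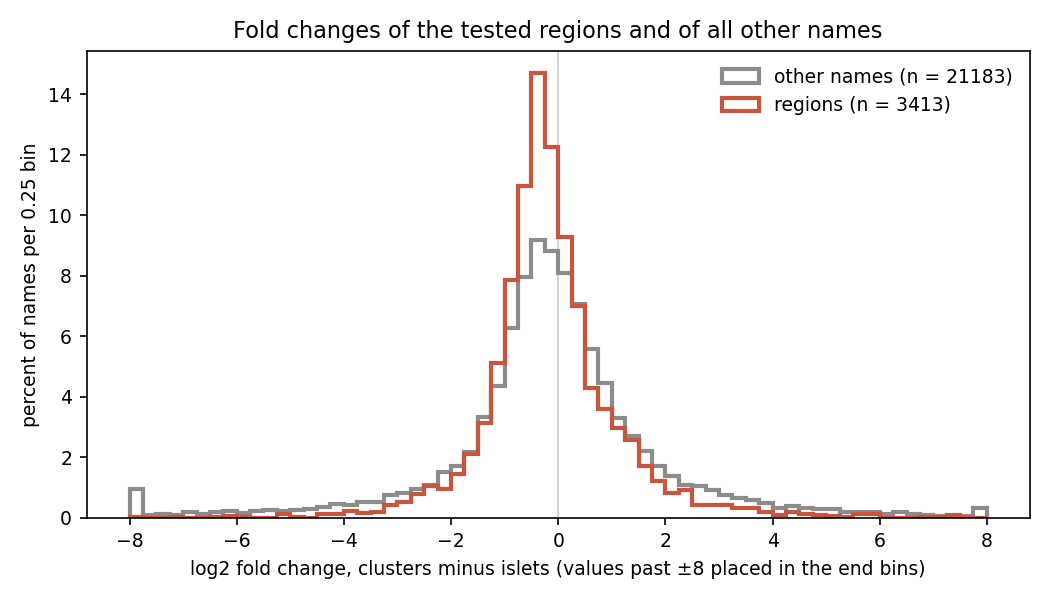
Distribution of log2 fold changes (horizontal axis, clusters minus islets) of the 3413 tested regions and of the 21183 other tested names, as the percent of each set per bin of 0.25 (vertical axis). The regions form the narrower curve: their middle 90% runs from -1.98 to 1.95, that of the other names from -3.61 to 3.25.

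Replicate arrays agreed more closely than arrays of different groups. Signals of the tested regions had a Pearson's r of 0.959 for the pair of cluster arrays and 0.975 for the pair of islet arrays, but of 0.737 to 0.774 across groups (n = 3413 regions, which are not independent replicates). All arrays lay on 1 slide with the groups at separate positions, so position and group cannot be told apart. The cell make-up of the groups also differed. All 8 mesenchymal markers were higher in clusters, with summed levels of 10.56 to 10.70 in clusters and 5.66 to 5.90 in islets (log2 relative to the array's 75th percentile, for this and the next values). All 8 islet endocrine markers were lower (-0.69 to -0.19 in clusters, 5.00 to 7.58 in islets), with Gcg, Ppy and Iapp not well above background in clusters. All 8 acinar markers were lower (0.59 to 0.63 against 12.06 to 12.70), with Cpa1, Amy2a5 and Pnlip not well above background in clusters. Of 4 duct markers 3 were lower (-0.17 to 0.57 against 6.78 to 7.41; Krt7 not well above background in clusters), as were all 4 endothelial ones (-0.63 to -0.53 against 2.97 to 2.98; Cdh5 and Tek). Of 4 macrophage markers 2 were lower and 1 higher (0.29 to 0.41 against 1.80 to 2.97), and of 3 erythroid markers both tested ones were lower (-3.37 to -2.79 against -0.28 to 2.32; Hbb-b1 and Alas2). The part of these cell types in the regions' differences was not tested.

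The regions with the largest differences among those well above background on all arrays reached over 100-fold in each direction. They are the 8 highest and 8 lowest of 750 called regions whose averaged probes were all well above background on the 4 arrays. Highest was chr12:89448550-89461843 on the reverse strand, 34.2 kb from the probe of Gm10436 (now Pramel51). It read 2.97 and 3.46 in clusters and -4.07 and -4.08 in islets, a log2 fold change of 7.29 ± 0.21 (SE; limma adjusted p = 0.000108). Only 1 of its 5 probes passed the filter, and averaging all 5 gave 1.48.

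A region upstream of the fibronectin gene followed. The single probe of chr1:71730016-71740391 (reverse), 97.8 kb upstream of the probe of Fn1 on the same strand, read 3.34 and 3.50 in clusters and -3.27 and -3.42 in islets. The log2 fold change was 6.77 ± 0.15 (adjusted p = 8.12e-05), and Fn1 itself, which encodes a glycoprotein of the extracellular matrix, had one of 7.78 ± 0.35. The groups were far apart and the replicates of each lay close together.

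In the Hoxb cluster, whose homeobox genes pattern the body axis, chr11:96175764-96176029 (forward) lay 6.86 kb upstream of the Hoxb4 probe. Its 3 probes averaged 2.23 and 2.14 in clusters and -3.78 and -3.36 in islets (log2 fold change 5.76 ± 0.19), and each probe alone was called higher, by 5.16 to 6.35. Hoxb4 had a log2 fold change of 6.25 ± 0.19. Also higher was chr3:65740585-65741001 (forward), near Ccnl1, which encodes a cyclin of the splicing machinery: 1 kept probe read 1.04 and 0.97 in clusters and -4.65 and -4.32 in islets, while Ccnl1, on the other strand, had -0.47 (adjusted p = 0.0739).

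On the side of Zfp541, a zinc finger gene, all 3 probes of chr7:16633756-16634410 (forward), shown above, gave like values. They averaged 2.94 and 2.85 in clusters and -2.02 and -1.82 in islets (4.81 ± 0.15, adjusted p = 0.000119), with single-probe log2 fold changes of 4.35, 4.98 and 5.11. The last one, which holds AATAAA, had the largest difference. Zfp541, 46.1 kb away, was not well above background on any array.

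The remaining 3 of the 8 highest regions had 2 kept probes with very different values. In chr4:140904589-140915114 (forward), 19.4 kb from the Epha2 probe, the probes gave 0.97 and 7.03, and Epha2, an ephrin receptor, was lower in clusters (-3.24 ± 0.16). In chr11:96111499-96126224 (reverse), around Gm53 on the other strand, they gave 0.07 and 7.72. In chr9:118291593-118324230 (forward), 70.2 kb upstream of the probe of Eomes, a T-box transcription factor with -1.31 ± 0.23, they gave -0.03 and 7.78. The higher of the Eomes-side probes read 7.29 and 7.22 in clusters and -0.55 and -0.50 in islets, while 4 of the region's other 5 probes were not well above background on any array.

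In the other direction chr1:36086491-36087863 (reverse) led. Its single probe, 74.8 kb from that of Hs6st1, a heparan sulfate sulfotransferase, read -2.37 and -3.24 in clusters and 3.98 and 4.78 in islets. The log2 fold change was -7.18 ± 0.42 (adjusted p = 0.00046), against -0.98 ± 0.19 for Hs6st1. The single probe of chr13:104592755-104593231 (reverse), 15.9 kb from Erbb2ip (now Erbin, a scaffold protein that binds the receptor ERBB2), read -3.34 and -2.30 in clusters and 3.41 and 3.64 in islets. No call was made for Erbb2ip (0.35, adjusted p = 0.114).

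The most even of the lower regions was chr2:79517813-79518321 (forward), on the side of Ssfa2 (now Itprid2). Its 3 probes, shown above, averaged -3.82 and -3.90 in clusters and 2.38 and 2.32 in islets, with single log2 fold changes of -6.14, -6.15 and -6.34 (-6.21 ± 0.13 together, adjusted p = 8.12e-05). Ssfa2, whose probe lies 14.9 kb upstream on the same strand, was also lower, at -2.85 ± 0.15.

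For chr9:78372153-78372834 (forward), 12.6 kb from Slc17a5, which encodes the lysosomal sialic acid exporter, 1 of 3 probes was kept. It read -0.14 and -0.17 in clusters and 4.61 and 5.53 in islets. The region chr2:94082835-94101939 (forward, Ttc17 side) fell by 5.00 on the log2 scale, chr4:140609589-140614789 (forward, near Necap2, of clathrin-mediated endocytosis) by 4.26, chr17:21785442-21801542 (reverse, around the zinc finger gene 3110052M02Rik, now Zfp983) by 4.04 and chr18:67435075-67447150 (forward, Impa2 side) by 4.00. On the Impa2 side the islet arrays were far apart, at 2.29 and 3.81, and Impa2, an inositol monophosphatase, fell by 3.05. Slc17a5, Ttc17 and Necap2 were not called.

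Of the 16 regions, 10 rested on 1 kept probe, 3 on 2 kept probes and 3 on 3. Averaging all probes of a region, dim ones included, kept all 16 calls but left 8 of them with a log2 fold change between -2 and 2. The nearest gene was tested for 12 of them: 5 were called in the direction of the region, 2 in the other direction and 5 not at all.

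**Figure D2:**
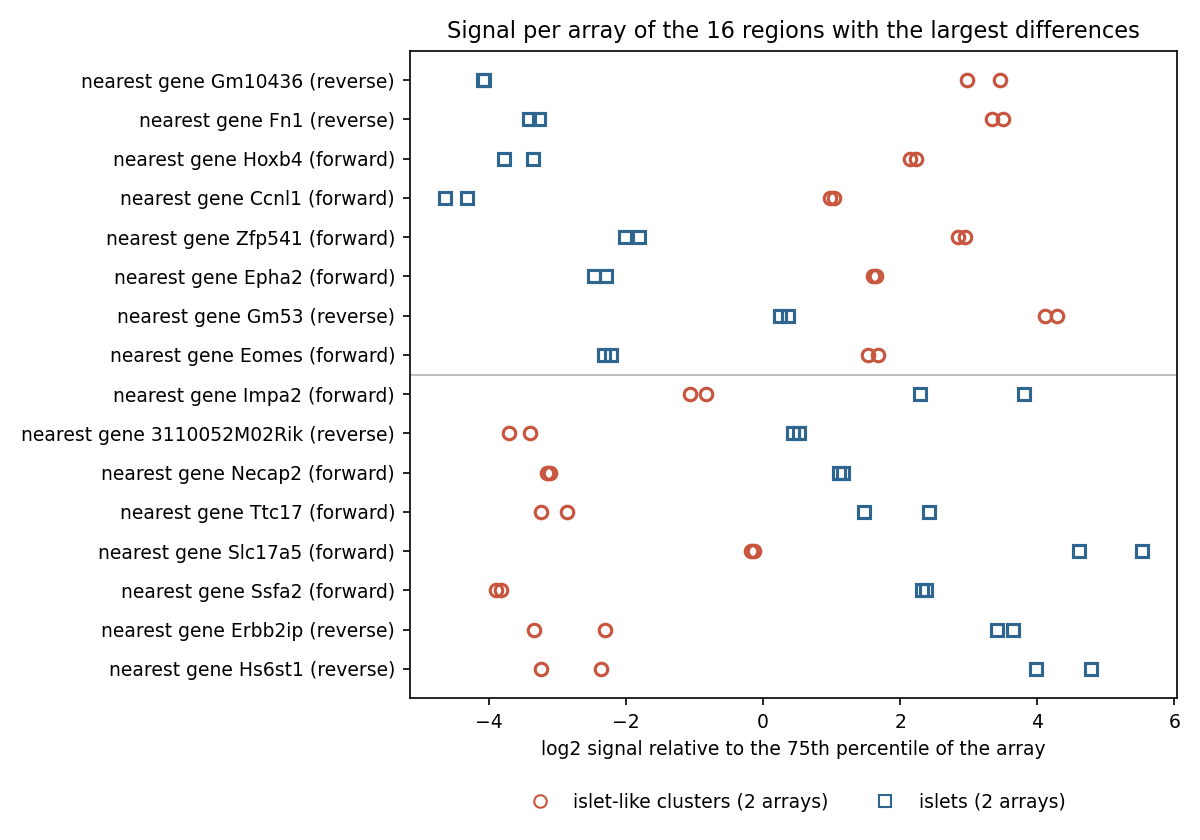
Log2 signal relative to the 75th percentile of each array (horizontal axis) of the 8 highest and 8 lowest regions, 1 line each, named by the nearest gene and the strand of the region; circles are the 2 cluster arrays and squares the 2 islet arrays. In every line the groups stand apart, with the widest replicate gap in the islets of the Impa2-side region (2.29 and 3.81).

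Some regions were well above background in 1 group alone, and for them only a bound can be given. The dim group was not always without signal. By the software's less strict flag, each region named by its bound had a significant probe there on 1 or both arrays. That count took in all probes of a region, also those not used for the bound. Of the 628 higher regions 76 had no probe well above background in islets, and of the 879 lower regions 90 had none in clusters. A bound sets the bright group's mean against the dim group's mean of, per array, the higher of the lowest well-detected signal and the probe's own. By it chr19:46419916-46421753 (forward) was at least 46.5-fold higher in clusters, and its 3 probes all were called. Also higher were chr4:10407110-10724958 (reverse, at least 42.5-fold) and chr1:166985480-166986024 (reverse, at least 21.7-fold, 82.8 kb from Tbx19, a T-box factor).

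Among the lower regions chr8:26870059-26870530 (forward), 7.61 kb from Bag4, a co-chaperone gene, read 2.52 and 2.35 in islets and was at least 184-fold lower in clusters. Bag4 was not called (0.03, adjusted p = 0.881). The 3 probes of chr8:48480224-48480698 (reverse, Trappc11 side) gave at least 23.6-fold, the 3 of chr17:71183978-71185384 (forward) at least 14.0-fold and the 1 of chr17:15132576-15147002 (reverse) at least 13.5-fold. The third lies 8.25 kb from Tgif1, a homeobox repressor of TGF-beta signalling that fell by 1.06 on the log2 scale, and the last surrounds Gm3448, which fell by 4.61. With normexp background correction and its offset of 50, which compress dim signals, these regions kept their call. Their folds then lay below the bounds, from 2.66 for chr17:15132576-15147002 to 30.6 for chr8:26870059-26870530. The chr19 region had 6.14 in place of at least 46.5. The bounds therefore hold only for the background treatment used here.

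Probes of the same region often differed. Among 2051 tested regions with at least 2 kept probes, 332 had every kept probe called in the same direction and 165 had probes called in opposite directions. The median range of probe log2 fold changes within a region was 1.04 (n = 2036 regions), and in 495 regions it was over 2. Of the 1906 regions with no call, 555 had at least 1 probe that was called by itself. Among single probes of regions 44.9% of 7630 were called (21.7% higher, 23.2% lower), and among all single probes 56.2% (26.8% higher, 29.4% lower).

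Agreement fell with the distance between neighbouring probes of a region. Overlapping probes, whose starts lay under 60 bases apart, had correlated log2 fold changes (r = 0.78 over 76 pairs), and all 39 pairs in which both were called had the same direction. From 60 to under 200 bases r was 0.67 (2731 pairs) with 93.2% of 853 called pairs in the same direction, and at 200 bases to 1 kb it was 0.45 (677 pairs) with 87.6%. Over 1 kb apart r was 0.20 (685 pairs) with 74.3% of 144. The pairs of a region share its arrays and locus and are not independent.

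The Rnf19b-side region chr4:128727332-128735227 (forward) shows how far 1 probe can carry a mean. Its higher probe, shown above, read 3.84 and 3.98 in clusters and -7.18 and -6.04 in islets, a log2 fold change of 10.52. These islet values lie below the lowest well-detected signals of the islet arrays (-5.76 and -4.77), so the size of that difference is not measured. The probe 68 bases downstream had 0.42 (limma adjusted p = 0.0559) and the last one -1.23. The mean of the 5 kept probes was 1.82 ± 0.22 (adjusted p = 0.00333), and with only the probes detected on all arrays it was -0.62 (adjusted p = 0.0556).

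**Figure D3:**
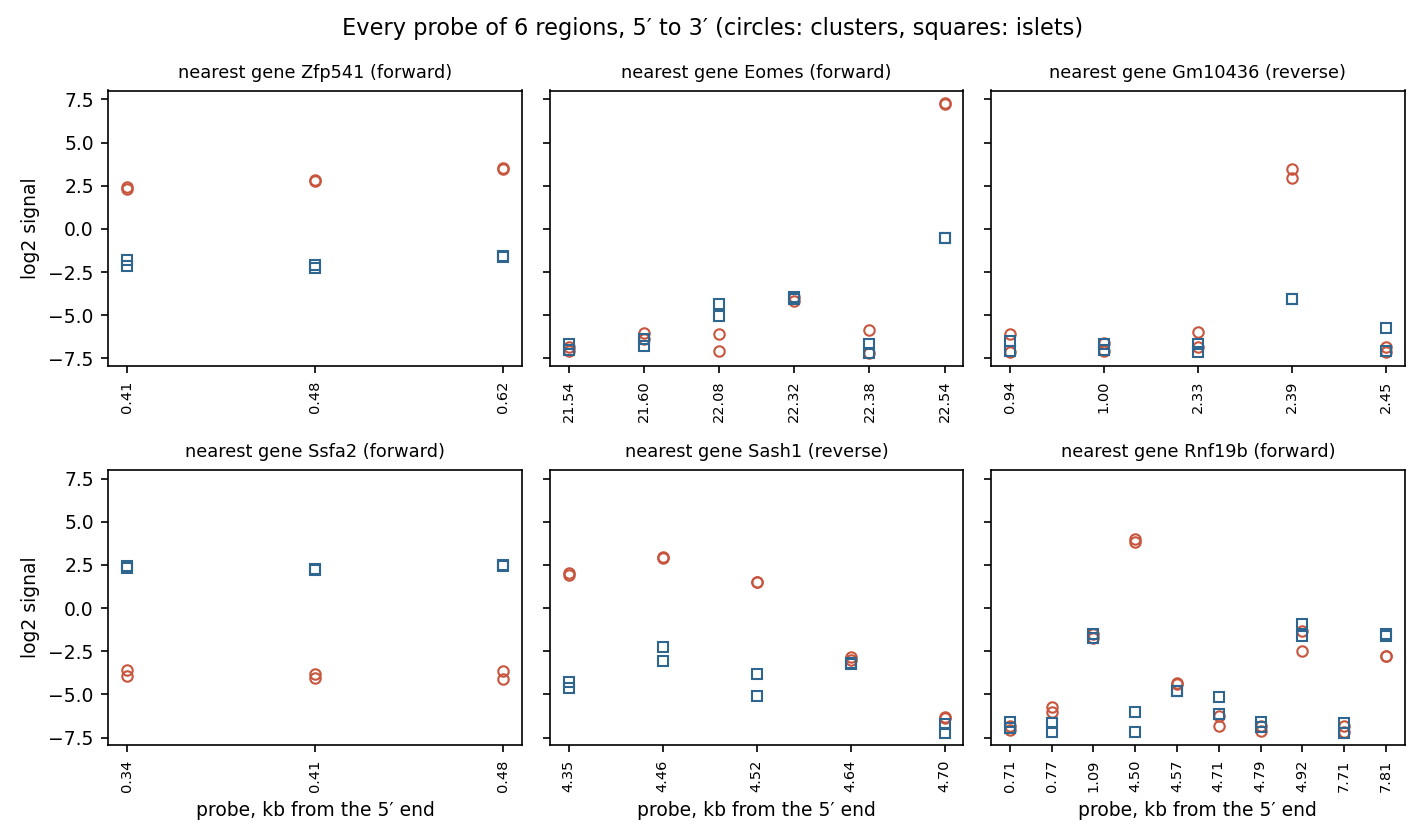
Log2 signal (vertical axis) of every probe of 6 regions, ordered by distance from the region's 5′ end in kb (horizontal axis, evenly spaced), with circles for the 2 cluster arrays and squares for the 2 islet arrays. In the Zfp541-side and Ssfa2-side regions all 3 probes separate the groups, while on the Eomes, Gm10436 and Rnf19b sides 1 probe stands far above its neighbours.

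Where regions lay relative to genes was read from the positions of the RefSeq gene probes on the array, which often sit near a gene's 3′ end. The median distance from a region to the nearest one was 18897 bp. A RefSeq probe lay inside 528 regions, 324 of which held one on their own strand, so these regions are not free of annotated genes. Another 1135 had one within 10 kb, and 247 had none within 200 kb. Regions near genes were seen more often: 78.8% of those with a gene probe inside and 53.0% of those over 200 kb away were detected on all 4 arrays. These classes were not matched for length or for the number of probes, with which detection also rose. Of the tested regions 50.8% and 36.5% were called in the same classes, against 58.0% of all names.

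Regions and nearby genes on the same strand tended to differ in the same direction. Within 10 kb there were 352 pairs of a region and its nearest gene that both were called, and 264 of them (75%) had the same direction: 154 both higher and 110 both lower. On the same strand it was 180 of 224 (80.4%) and on opposite strands 84 of 128 (65.6%). As a background, a RefSeq gene and its nearest other RefSeq gene within 10 kb shared their direction in 633 of 1072 called pairs (59%), or 63.1% on the same strand and 57.5% on opposite strands. The difference between region pairs and gene pairs was not tested, and several regions of a locus can share 1 gene.

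The share depends on how a region is summarised. With only the brightest probe of each name it was 63.7% for region pairs (65.6% on the same strand) and 59.2% for gene pairs. Over the other alternatives it ran from 67.4% to 84.2% for region pairs, and over all alternatives from 57.6% to 61.8% for gene pairs. Without cluster replicate 1 it was 171 of 203 pairs (84.2%). Counting 1 region per overlapping locus gave 182 of 244 pairs (74.6%).

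A gene probe inside the region on the same strand gave the highest share, 85 of 96 (88.5%), and one inside on the opposite strand gave 23 of 42 (54.8%). Regions without any RefSeq probe inside had 156 of 214 pairs (72.9%) within 10 kb. From 10 to 50 kb the share was 62.4%, from 50 to 200 kb 56.7% and beyond 200 kb 56.1%. Over 1 kind of pair the size of the difference also went together: within 10 kb r was 0.51 on the same strand (n = 688 pairs) and 0.20 on the opposite strand (n = 500). A probe with the sequence of another name's probe was present in 19 of the 352 pairs, 17 of them with the same direction.

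**Figure D4:**
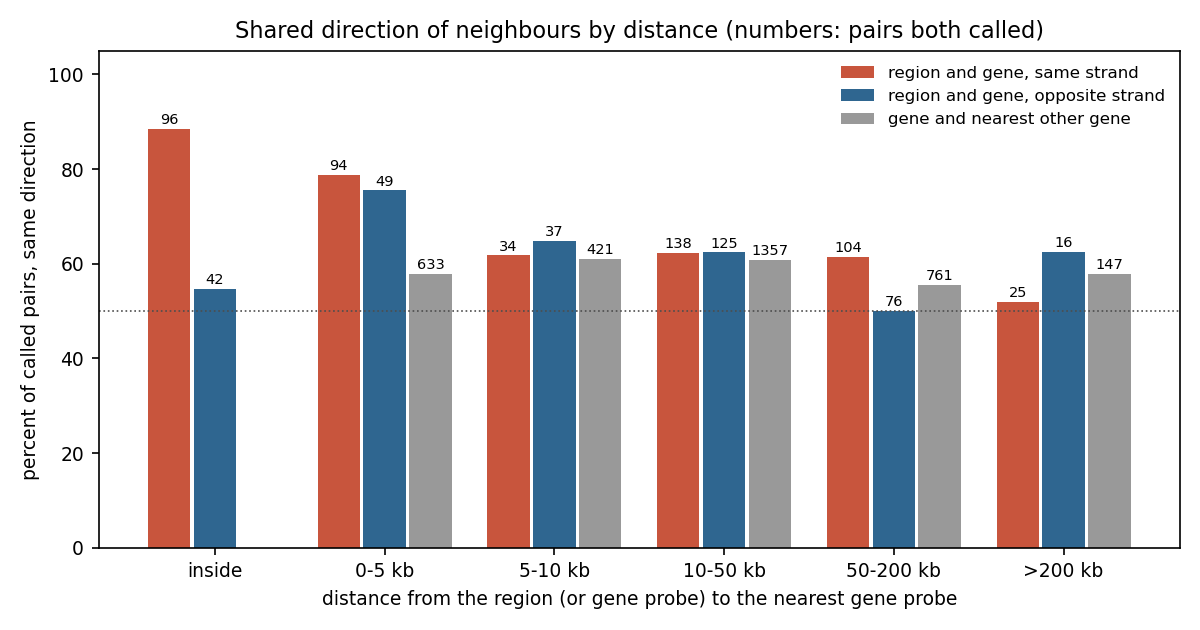
Percent of pairs with the same direction (vertical axis, from 0) among pairs in which both members were called, by distance (horizontal axis), for a region and its nearest gene on the same strand or the opposite strand, and for a gene and its nearest other gene; numbers above the bars are the pairs called and the dotted line is 50%. The bar for a same-strand gene probe inside the region is the highest (88.5% of 96 pairs), and beyond 50 kb the same-strand bars are at 61.5% and 52.0%.

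Beside genes with large differences on the same strand, calls leaned to the direction of the gene. Of 79 tested regions within 10 kb on the strand of a gene over 4-fold higher in clusters, 43 were higher and 8 lower, with a median log2 fold change of 0.92. Beside genes over 4-fold lower, none of 44 was higher and 24 were lower (median -0.79). Beside genes with no call, 62 of 278 were higher and 69 lower (median -0.16). On the opposite strand the counts were 12 higher and 12 lower of 52 beside the strongly higher genes, and 0 and 19 of 44 beside the strongly lower ones.

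**Figure D5:**
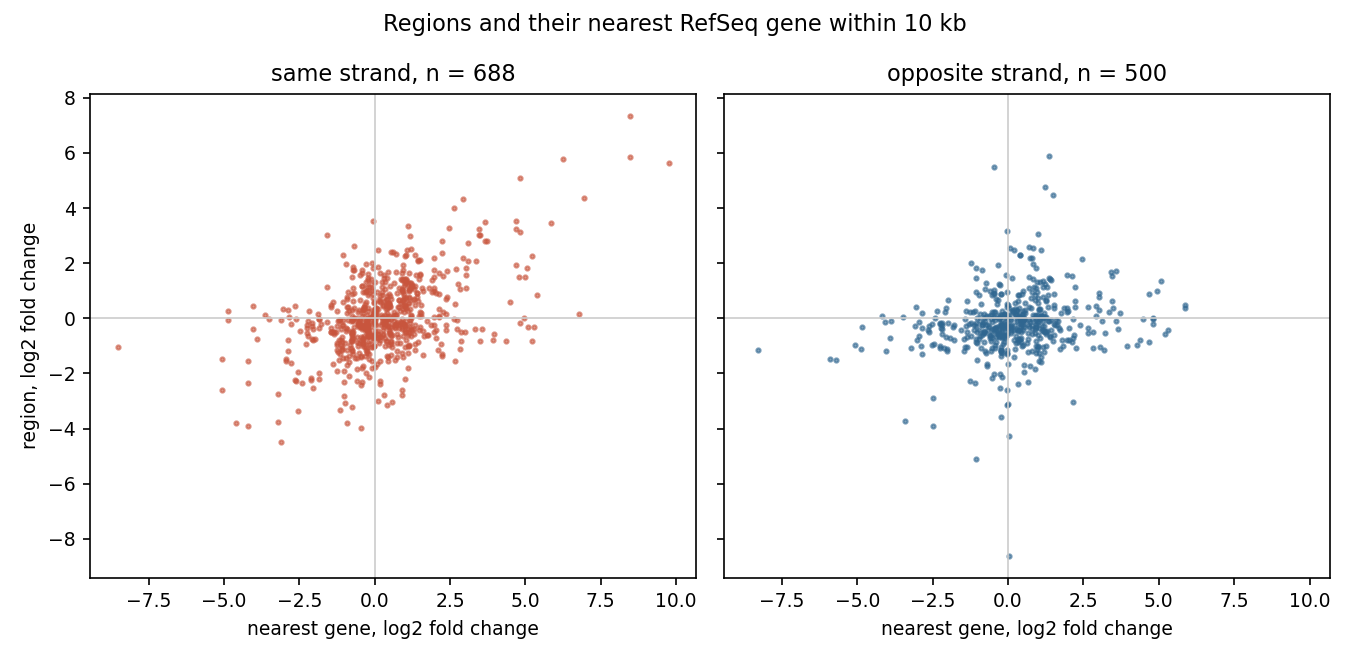
Log2 fold change (clusters minus islets) of each tested region (vertical axis) against that of its nearest tested RefSeq gene within 10 kb (horizontal axis), for genes on the same strand (688 points, left) and on the opposite strand (500 points, right). The points on the left spread along a rising diagonal (r = 0.51), those on the right much less so (r = 0.20).

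Of 45 tested mesenchymal and patterning transcription factors 42 were higher in clusters and none lower. Regions were counted only at their nearest RefSeq gene by probe position, as the Hoxb4-side region above was at Hoxb4 and not at Hoxb5. By this count 6 of the factors had 11 regions within 10 kb. Of the 9 of these regions tested, 4 were higher and 1 was lower, where 18.4% and 25.8% of all tested regions were.

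At Hoxb5 the region chr11:96173788-96174352 (forward), which lies less than 2 kb upstream of the Hoxb4-side region above, had a log2 fold change of 1.51 ± 0.17 (adjusted p = 0.00256). Hoxb5 itself had one of 4.99 ± 0.29. This call was lost with normexp correction (0.18, adjusted p = 0.328) and with the brightest probe (0.46, adjusted p = 0.0617). At Twist2, a mesenchymal bHLH factor with 5.07, the opposite-strand region was higher (1.37 ± 0.16) and the same-strand region was not called (-0.32, adjusted p = 0.257). At Nr2f2, a nuclear receptor with 4.96, the opposite-strand region was higher (0.98 ± 0.16), and at Six2 the opposite-strand region chr17:86092322-86093123 was lower (-0.78 ± 0.19) while Six2 was higher (1.79).

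None of the 26 tested endoderm and pancreas transcription factors, of which 21 were lower and 2 higher, was the nearest gene of a region within 10 kb. Regions within 10 kb of such a factor but nearer to the probe of another gene were not counted. By nearest gene within 10 kb, 5 of the immediate early, inflammatory and stress genes had 7 tested regions, of which 1 was called (44.2% of all tested regions). This was chr8:87504644-87513694 (reverse), 2.70 kb upstream of the probe of Junb, an AP-1 subunit. It averaged -3.89 and -3.96 in clusters and -2.53 and -2.41 in islets (-1.45 ± 0.14), and Junb fell by 0.60. With the brightest probe the region had -0.29 (adjusted p = 0.163). Of the 31 tested genes of that list, 15 were higher and 12 lower.

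Several regions lay at noncoding RNA genes that have names and probes of their own. Of 64 such genes 33 were on the array and 29 were tested, with 14 higher and 3 lower in clusters (all names 26.9% and 31.2%). Meg3, an imprinted noncoding RNA, stood out at 1.58 and 1.61 in clusters and -3.48 and -3.50 in islets (5.08 ± 0.13). Snhg11 (4.45 ± 0.47) and Mirg (1.96 ± 0.28) were also higher, and Snhg1 (-2.09 ± 0.23), Mir17hg (-1.08 ± 0.13) and Snhg12 (-0.89 ± 0.14) were lower. By nearest gene within 10 kb, 14 of these genes had 46 regions. Of these regions 43 were tested, 13 higher and 8 lower. Together that is a share near the 44.2% called among all tested regions.

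All 4 regions at Mir17hg, the host transcript of the miR-17 cluster, were lower. The shortest, chr14:115443612-115445950 (forward), read 0.53 and 0.59 in clusters and 1.76 and 1.67 in islets (-1.15 ± 0.13), beside the gene's own -1.08, but 1 of its 3 probes has the sequence of a probe of another name. The longer forward ones had -0.87 ± 0.15 and -1.02 ± 0.18, and the reverse-strand one had -0.85 ± 0.16.

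At Tug1 (1.02 ± 0.15) the 3 regions around the gene on its own strand were all higher: chr11:3538125-3554450 (reverse) by 1.42, chr11:3539787-3548811 (reverse) by 1.32 and chr11:3542140-3546888 (reverse) by 0.75. One upstream of it, chr11:3548300-3549676 (reverse), was not called (-0.51, adjusted p = 0.0678), nor was the tested opposite-strand one (0.33). At Dleu2 (1.96 ± 0.13), a transcript that hosts small RNAs, 3 of 4 same-strand regions were higher (1.00, 1.50 and 1.77, the first with 1 probe that has the sequence of a probe of another name), the fourth had 2.19 ± 0.74 (adjusted p = 0.0609), and neither opposite-strand region was called.

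Neat1, the scaffold of nuclear paraspeckles, had a log2 fold change of 1.07 ± 0.17. A region 6.62 kb downstream of its probe on the same strand, chr19:5834117-5835940, had a larger one: its 3 probes averaged 2.73 and 2.76 in clusters and 0.09 and 0.42 in islets (2.49 ± 0.17, adjusted p = 0.000675). At Malat1 (0.36, adjusted p = 0.0762) 2 same-strand regions were higher by 0.49 and 0.68, and the others were not called. Only probe positions were read, not gene bounds. Whether the regions at Neat1 and Malat1 lie within these genes' own transcripts was therefore not tested. The Pvt1-side region chr15:62090565-62091770 (forward) was higher (1.65 ± 0.23), as was Pvt1 (1.14 ± 0.14).

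Around the probe of Emx2os, the antisense transcript of the homeobox gene Emx2, chr19:59498190-59531390 (reverse) read -1.84 and -1.82 in clusters and -4.63 and -5.71 in islets (3.34 ± 0.39), against 1.09 ± 0.19 for the gene's own probe. Its opposite strand was not called (0.07). At Mirg, which was higher itself (1.96), neither same-strand region was called (0.03 and -0.24), and the opposite-strand region was lower (-0.78 ± 0.17). Other regions differed where their gene was not called: at Nespas (now Gnasas1; 0.06, no call) 1 same-strand region was higher (0.96 ± 0.22) and another lower (-1.65 ± 0.15), and at Snhg3 (-0.25, no call) the opposite-strand region was lower (-1.36 ± 0.37).

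Most bounds probed on both strands gave signal on both. Of these 1042 bounds, 752 (72.2%) had both strands detected on both arrays of a group, 243 had 1 and 47 had neither. Of all regions, taken singly, 71.6% were detected on both cluster arrays and 72.7% on both islet arrays. In 149 of the 744 bounds with both strands tested both were called, 96 in the same direction (64.4%; 34 higher, 62 lower) and 53 in opposite directions. Of all tested regions, taken singly, 44.2% were called. The shares to expect from unrelated strands were not computed. The fold changes of the strands had an r of 0.14 (n = 744 bounds). When dim probes were left in the number of bounds called on both strands was 30, with normexp correction 95, with all probes averaged 70, without cluster replicate 1 it was 51 and without cluster replicate 2 it was 59.

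The pair with the largest shared difference was chr10:8606683-8665783, 164 kb from Sash1, an adaptor protein gene that was higher itself (2.38 ± 0.14). Its forward strand averaged -1.61 and -1.75 in clusters and -5.66 and -4.83 in islets (3.57 ± 0.31), and its reverse strand 0.86 and 0.88 against -3.98 and -3.40 (4.56 ± 0.23). The overlapping probes shown above had log2 fold changes of 5.62 (forward) and 5.59 (reverse). The forward one was not well above background in islets, so the size of its difference is not measured. On each strand another probe of the region, well above background on all arrays, was not called (0.29 forward, 0.28 reverse), and with only the probes detected on all arrays the forward strand had 0.29 (adjusted p = 0.229). At chr16:46384974-46391331, 3.77 kb from Pvrl3 (now Nectin3, a cell adhesion protein; 2.45 ± 0.20), the strands had 2.17 ± 0.19 and 3.29 ± 0.29. The forward call there was lost with all probes averaged (0.44, adjusted p = 0.105) and the reverse one with the brightest probe (1.13, adjusted p = 0.535).

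In opposite directions, chr1:75075500-75102200 was lower on the forward strand (-2.38 ± 0.20, 1 of 5 probes kept) and higher on the reverse strand (2.31 ± 0.16). The 4 probes of the reverse strand each were higher, by 1.97 to 2.61. Slc23a3, 19.9 kb away, was lower (-1.29 ± 0.30). Averaging all 5 forward probes gave -0.03 (adjusted p = 0.918). The Rnf19b-side bounds chr4:128727332-128735227 had 1.82 ± 0.22 on the forward strand and -1.61 ± 0.36 on the reverse strand, and Rnf19b, a ubiquitin ligase, had -1.45 ± 0.24. The reverse call was lost without cluster replicate 1 (-1.28, adjusted p = 0.0617), with only the probes detected on all arrays (-0.47, adjusted p = 0.162) and with the brightest probe (-0.58, adjusted p = 0.106).

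Called regions lay on every autosome. Of the tested regions between 37.5% (chromosome 19, 80 tested) and 53.0% (chromosome 16, 115 tested) were called, against 44.2% over all regions. The share of higher ones among the called regions ran from 25% on chromosome 11 (17 of 68) to 56.8% on chromosome 2 (63 of 111).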

How the data were processed

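Per the file headers, the deposited scanner files hold spot intensity written by Agilent Feature Extraction 11.5.1.1 (background-subtracted and detrended processed signal), with probe positions and sequences on mm9. The authors' deposited value table holds log2 values on the same scale (column medians -3.37 to -3.70) and served as an alternative. Values analysed here are log2 of the processed signal minus each array's 75th percentile; control spots and non-uniform spots were left out, which dropped 490 probes. Kept were the 34974 probes that both arrays of either group measured well above background, and the kept probes of a name were averaged. No region spot was saturated. All 24596 names were fitted together with limma 3.58.1 in R 4.3.3 (2-sided, no covariates, residual df 2, total 4.35 with the prior). In simulated data 200 of the names were changed. The fit recovered 0%, 53.0% and 89.4% of log2 changes of size 1, 2 and 4, with 9 false calls. So few changed names make the adjustment stricter than in the real data, where 58.0% of names were called. A missing call is therefore not evidence of no difference. The number of arrays limits the precision.

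Regions named are the 8 highest and 8 lowest called ones well above background on all arrays, the 4 largest bounds per direction, up to 2 called regions beside each gene list, and the 2 leading strand pairs of each kind (some regions this rule names are not reported here); regions at Tug1, Mir17hg and other list genes were added after their values were seen. A later gene symbol comes from RefSeq (GRCm38.p6, names only; 20871 of 21219 gene names matched). The members and lists were chosen with earlier results of these data known.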

Additional observations from a re-analysis of the deposited data

How the results depend on the processing

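Of the 37 regions named by the rule, 29 kept their call under every alternative that gave them a value; the forward strand of chr4:128727332-128735227 reversed to -0.62 with only the probes detected on all arrays. Normexp correction moved 22 of the 37 log2 fold changes by over 1.5 times, and averaging all probes or using no filter 14 each. The median of the regions was -0.037 when scaled to the array median, -0.40 when scaled over probes detected on all arrays and -0.090 with quantile normalization. Normexp gave 356 higher regions and 95 strand pairs. With no filter on dim probes 841 regions were called, 420 of them lower, with 160 same-direction neighbour pairs and 30 strand pairs; averaging all probes gave 70 strand pairs. Within 50 kb 428 pairs had the same direction, and 156 where no RefSeq probe lay inside. Requiring every probe above background left 885 regions in clusters and 858 in islets. Leaving out 1 array at a time gave 1010 to 1699 called regions (414 to 668 higher, 591 to 1073 lower), medians of -0.36 to -0.15, 171 to 288 neighbour pairs and 51 to 166 strand pairs. The replicate numbers mark no known pairing (residual correlation of same-numbered arrays -0.02). With them as a block 1205 regions were called (546 higher, 659 lower) and 87 strand pairs, and 49.5% of all names were called. Choosing 1 region per overlapping locus, added after seeing the data, gave 1131 calls among 2597 regions tested. Probes not well above background limit all dim regions.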
